A study of Mus musculus with 20 samples.

Results

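The 6 genes described here are the core repressors of the circadian clock in the deposited counts: the Period genes Per1, Per2 and Per3, the cryptochromes Cry1 and Cry2, and Ciart, which encodes the repressor CHRONO. They were chosen by name, as the rows of these genes in a table of 53311 genes, and all 6 were among the 13560 genes kept by a filter on low counts. The libraries came from gastrocnemius, a calf muscle, of mice labelled with the genotype Cre+:iMSBmal1 fl/fl in every group, so the controls carry the same alleles. Animals were labelled either Vehicle or iMSBmal1KO, the latter for loss of BMAL1 in skeletal muscle, and each was either not exercised or taken 1 h after a 30 min treadmill bout, all at zeitgeber time 13. There were 5 libraries in each of 4 groups: vehicle at rest, vehicle after exercise, knockout-labelled at rest and knockout-labelled after exercise. The promoter that drives Cre and the agent that induces it are not given in the sources used here. The animals' age is likewise not given there. The descriptions of exercised knockout-labelled samples speak of training, while their titles and treatment labels give an acute bout, which is followed here. Libraries are taken as separate animals from their labels, and if they are not, the p-values measure technical spread.

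In the molecular clock BMAL1 pairs with CLOCK or its relative NPAS2, binds E-box sequences and switches on Per, Cry and Ciart. The PER and CRY proteins then enter the nucleus together and block that pair, which closes the negative feedback loop, while CHRONO binds BMAL1 and represses it in parallel. Per1 and Per2 also have response elements for glucocorticoid receptor and for CREB, through which hormones and activity can induce them outside the loop. In skeletal muscle the clock is known for timing fuel use, and exercise is known as one of the cues that can shift it.

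Arntl, which encodes BMAL1 and is the gene named for deletion, checks the labels. Its level was 12.3 ± 2.39 CPM (counts per 1000000, scaled by TMM; SD, n = 5) in resting vehicle muscle and 14.5 ± 1.94 CPM under the knockout label. After exercise it was 14.3 ± 5.71 CPM and 16.4 ± 4.15 CPM. Arntl was thus not lower under the knockout label, a whole-gene count does not show which exons the reads came from, and all directions below are those of the labels. Total counts ran from 8045154 to 11269812 per library with a median of 9024900. All 7 skeletal muscle markers were detected in every library. Acta1, Ckm, Myh4 and Pvalb were at 4690 CPM or more in each, while Myh2 ran from 43.01 to 5102 CPM, Myh1 from 377 to 7863 CPM and Mb from 302 to 3744 CPM. The mean log2 CPM of 7 slow-fibre markers ran from -0.41 to 8.65, and 5 libraries lay under 3: vehicle at rest 5, vehicle after exercise 2 and 4, and knockout-labelled after exercise 2 and 4. In whole muscle, fewer cells of a type and less RNA per cell cannot be told apart.

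The promoters of these genes are shown because the clock's activators act through short sites in them. RefSeq (GRCm38.p6) gave a window of 250 bases before to 50 bases after the start for Per1, Per3, Cry1, Cry2 and Ciart. Both strands were searched for the E-box CACGTG, the E-prime box CACGTT, the cAMP response element TGACGTCA, the D-boxes TTATGTAA and TTACGTAA, the nuclear receptor site AGGTCA and the palindromic consensus of the glucocorticoid element. Capitals mark every match, 5′ to 3′ on the gene's strand, and positions count from the start of transcription.
Ciart, chr3:95882179-95882478, minus strand: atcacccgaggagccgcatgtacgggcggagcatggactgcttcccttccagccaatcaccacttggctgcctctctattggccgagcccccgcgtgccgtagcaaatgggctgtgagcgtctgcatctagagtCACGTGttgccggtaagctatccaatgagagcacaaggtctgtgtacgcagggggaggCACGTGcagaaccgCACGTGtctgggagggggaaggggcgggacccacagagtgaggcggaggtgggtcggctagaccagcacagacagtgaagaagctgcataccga
Cry1, chr10:85185005-85185304, minus strand: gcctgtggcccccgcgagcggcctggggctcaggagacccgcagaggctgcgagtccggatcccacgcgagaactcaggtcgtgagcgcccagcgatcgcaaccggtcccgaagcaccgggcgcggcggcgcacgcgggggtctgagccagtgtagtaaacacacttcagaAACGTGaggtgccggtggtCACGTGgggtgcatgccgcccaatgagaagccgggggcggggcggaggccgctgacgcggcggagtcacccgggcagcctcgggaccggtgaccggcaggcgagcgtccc
Cry2, chr2:92434020-92434319, minus strand: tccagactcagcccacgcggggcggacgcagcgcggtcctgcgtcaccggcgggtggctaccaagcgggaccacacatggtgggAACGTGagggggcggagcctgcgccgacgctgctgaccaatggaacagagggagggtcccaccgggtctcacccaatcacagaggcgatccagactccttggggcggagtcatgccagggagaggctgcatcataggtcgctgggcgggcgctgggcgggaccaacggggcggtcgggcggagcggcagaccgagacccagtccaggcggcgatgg
Per3, chr4:151044616-151044915, minus strand: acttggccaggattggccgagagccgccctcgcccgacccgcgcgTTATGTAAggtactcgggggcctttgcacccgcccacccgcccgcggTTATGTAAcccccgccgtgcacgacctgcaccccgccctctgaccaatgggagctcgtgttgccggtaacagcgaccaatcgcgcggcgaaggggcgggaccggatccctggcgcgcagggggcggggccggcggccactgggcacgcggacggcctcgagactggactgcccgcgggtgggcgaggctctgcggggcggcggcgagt
Per1, chr11:69098699-69098998, plus strand: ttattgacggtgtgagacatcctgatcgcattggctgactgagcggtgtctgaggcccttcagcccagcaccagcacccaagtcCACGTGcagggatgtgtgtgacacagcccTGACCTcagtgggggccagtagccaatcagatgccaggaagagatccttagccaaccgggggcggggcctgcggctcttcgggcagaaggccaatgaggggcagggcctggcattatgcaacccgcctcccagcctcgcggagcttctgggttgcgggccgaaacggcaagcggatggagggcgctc

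The Ciart window holds 3 E-boxes, at -116, -58 and -44, which 29 of 32851 mouse promoter windows of this length match or exceed (0.0883%). Cry1 has an E-box at -60 and an E-prime box on the other strand at -79, and Cry2 has an E-prime box on the other strand at -166. Per3 has 2 copies of the D-box TTATGTAA, at -205 and -158. Per1 has an E-box at -166 and the site AGGTCA on the other strand at -137, while the second Per1 start, at chr11:69099902-69100201, has no match. Of all windows, 7.15% hold an E-box, 4.68% an E-prime box, 0.938% the D-box TTATGTAA, 16.3% AGGTCA, 1.79% the cAMP response element, 0.119% TTACGTAA and 0.00913% the glucocorticoid element. A match is a description of the letters, and a window without one says only that the letters are not in it.

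**Figure D1:**
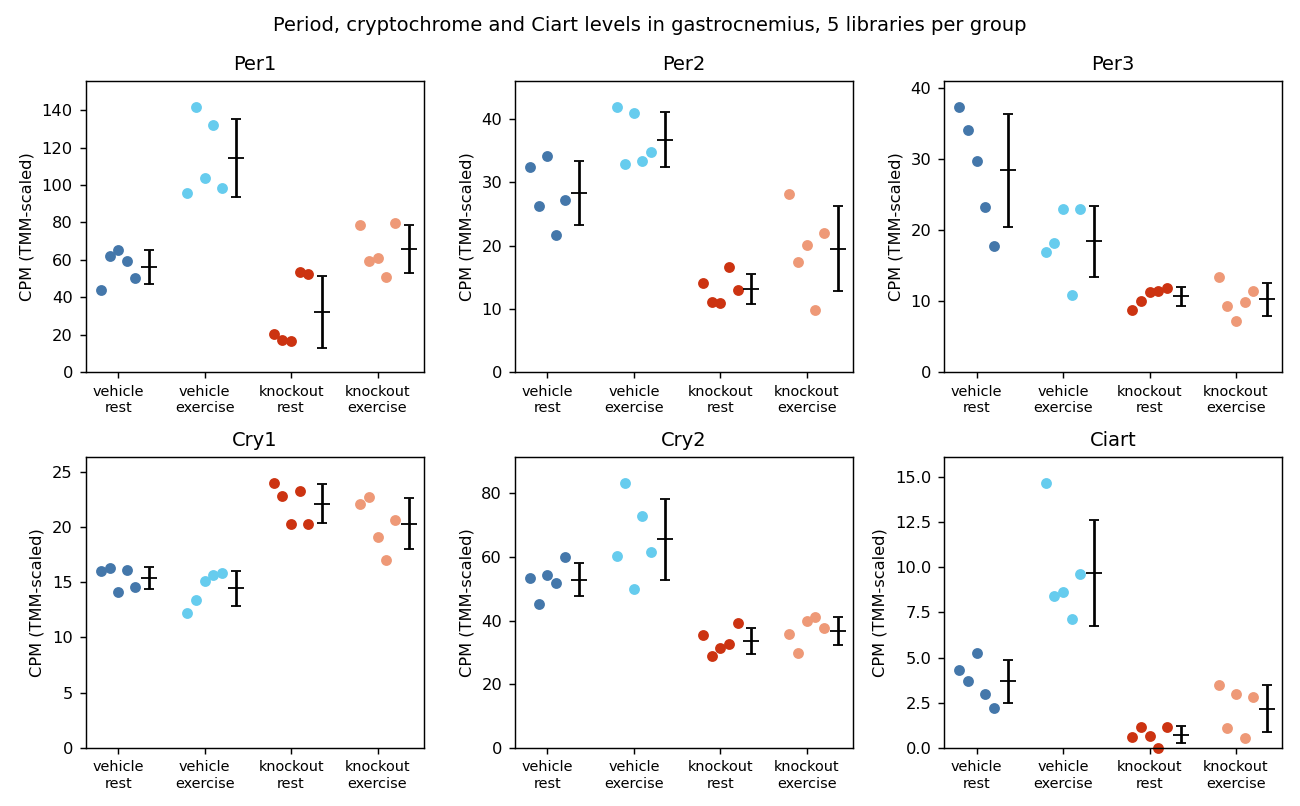
Level of each gene in CPM (TMM-scaled, linear axes from 0) in each library, with 1 dot per library and bars for the mean and SD of 5 libraries. Cry1 is the gene that stands higher under the knockout label, at 22.2 against 15.4 CPM at rest, and Per1 at rest under that label splits into 3 libraries from 16.6 to 20.1 CPM and 2 at 52.6 and 53.4 CPM.

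Of the 6 repressors, 5 differed between knockout-labelled and vehicle muscle at rest, and they did not move the same way: Per2, Per3, Cry2 and Ciart were lower and Cry1 was higher. The tests are edgeR quasi-likelihood tests on all 20 libraries with Benjamini-Hochberg adjustment over 13560 genes, and a gene is called at an adjusted p under 0.05. At rest 3.86% of all genes were called, 1.8% higher and 2.06% lower, and the 5 called members are read against that share. The contrasts for genotype and for exercise share libraries, so they are not independent of each other. The 2 groups of libraries did not overlap in those 5 genes, against 5.8% of all genes.

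Per3, the Period gene with the weakest role in rhythm generation, was lower at rest. In vehicle muscle at rest libraries 1 to 5 had 37.2, 34.0, 29.7, 23.3 and 17.8 CPM of Per3, and the knockout-labelled ones had 8.70, 9.998, 11.3, 11.4 and 11.8 CPM. The vehicle libraries spread widely, yet the lowest of them was above every knockout-labelled library. The log2 fold change was -1.41 (SE 0.21, edgeR adjusted p = 0.000176). After exercise Per3 had 16.9, 18.2, 23.0, 10.8 and 23.0 CPM in the vehicle libraries and 13.4, 9.28, 7.22, 9.85 and 11.4 CPM in the knockout-labelled ones. The groups then overlapped, through vehicle library 4 at 10.8 CPM, although the difference was called (log2 fold change -0.84, SE 0.21, edgeR adjusted p = 0.0167).

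Per2, a partner of CRY whose loss weakens behavioural rhythms in mice, was lower under the knockout label in both states. At rest Per2 had 32.5, 26.3, 34.2, 21.7 and 27.2 CPM in the vehicle libraries and 14.1, 11.03, 10.96, 16.6 and 12.99 CPM in the knockout-labelled ones. The groups stood apart, and the log2 fold change was -1.11 (SE 0.19, edgeR adjusted p = 0.00122). After exercise the levels were 41.9, 32.9, 41.0, 33.3 and 34.8 CPM in the vehicle libraries and 28.2, 17.4, 20.02, 9.85 and 21.9 CPM in the knockout-labelled ones. Knockout-labelled library 4 was the lowest and library 1 the highest of a group that did not reach the vehicle range, and the log2 fold change was -0.91 (SE 0.19, edgeR adjusted p = 0.00412).

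Per1, the Period gene known for rapid induction by hormones and activity, did not pass the test in either state. At rest it had 43.6, 61.8, 65.5, 59.4 and 50.3 CPM in the vehicle libraries and 20.1, 17.2, 16.6, 53.4 and 52.6 CPM in the knockout-labelled ones. Knockout-labelled libraries 4 and 5 lay within the vehicle range and the other 3 lay below it (log2 fold change -0.81, SE 0.30, edgeR adjusted p = 0.179). After exercise Per1 had 95.9, 141, 104, 132 and 98.4 CPM in the vehicle libraries and 78.5, 59.2, 60.9, 50.7 and 79.5 CPM in the knockout-labelled ones. Here the groups did not overlap, yet the difference was not called (log2 fold change -0.80, SE 0.29, edgeR adjusted p = 0.124). Limma-voom called Per1 at rest (adjusted p = 0.0409) but not after exercise (adjusted p = 0.0635). DESeq2 called it after exercise (adjusted p = 0.0386) but not at rest (adjusted p = 0.0515). EdgeR fitted on only the groups compared called it after exercise (adjusted p = 0.00775) but not at rest (adjusted p = 0.351). Without the 5 libraries of low slow-fibre score the value after exercise was -0.44 (SE 0.42, edgeR adjusted p = 0.745).

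Cry1, the cryptochrome with the stronger and later repression of the clock, was higher under the knockout label and its groups were tight. At rest Cry1 had 16.0, 16.3, 14.1, 16.1 and 14.5 CPM in the vehicle libraries and 23.998, 22.9, 20.3, 23.3 and 20.3 CPM in the knockout-labelled ones. No library crossed over, and the log2 fold change was 0.52 (SE 0.10, edgeR adjusted p = 0.00224). After exercise Cry1 had 12.2, 13.4, 15.1, 15.6 and 15.8 CPM in the vehicle libraries and 22.1, 22.8, 19.1, 17.0 and 20.7 CPM in the knockout-labelled ones, again without overlap (log2 fold change 0.49, SE 0.10, edgeR adjusted p = 0.00307).

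Cry2, the paralog that also represses the activator pair, was lower in the same libraries. At rest it had 53.4, 45.1, 54.3, 51.8 and 59.8 CPM in the vehicle libraries and 35.6, 28.7, 31.4, 32.7 and 39.3 CPM in the knockout-labelled ones (log2 fold change -0.66, SE 0.12, edgeR adjusted p = 0.00164). After exercise it had 60.3, 83.2, 50.02, 72.9 and 61.5 CPM in the vehicle libraries and 35.6, 29.8, 39.9, 41.0 and 37.5 CPM in the knockout-labelled ones (log2 fold change -0.83, SE 0.12, edgeR adjusted p = 8.45e-05). Across all 20 libraries the lowest vehicle value of Cry2 was above the highest knockout-labelled value, and for Cry1 the order was the reverse; groups of 10 that do not overlap were seen in 1.77% of all genes. In the annotation 295 exon bases of Cry2, 4.67% of its exon length, lie opposite exons of D930015M05Rik, which had 17 to 84 counts per library. Whether the counting used strand is not given in the sources used here.

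The proportion of the 2 cryptochromes differed between the labels. The ratio of Cry1 to Cry2 counts within a library was 0.295 ± 0.047 (SD, n = 5) with vehicle at rest and 0.228 ± 0.054 with vehicle after exercise. Under the knockout label it was 0.669 ± 0.102 at rest and 0.566 ± 0.135 after exercise. The ratio needs no scaling between libraries, and the vehicle libraries, from 0.161 to 0.362, did not reach the knockout-labelled ones, from 0.414 to 0.796.

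**Figure D2:**
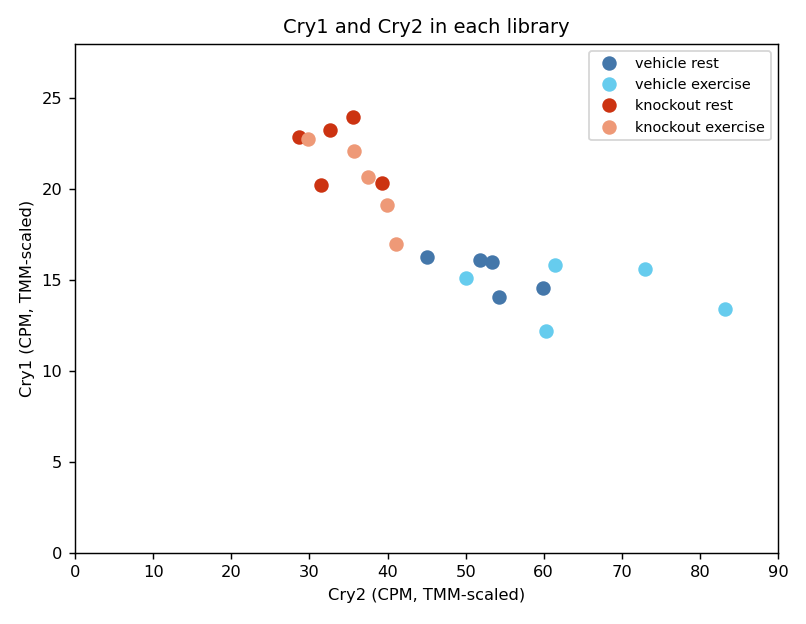
Cry1 against Cry2 in CPM (TMM-scaled, linear axes) in the 20 libraries, coloured by group, with 1 dot per library. Vehicle libraries lie at high Cry2 and low Cry1 and knockout-labelled libraries at low Cry2 and high Cry1, without overlap on either axis.

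Ciart, which encodes CHRONO, had the largest fold difference of the 6 between the labels in both states and the fewest counts. At rest Ciart had 4.29, 3.67, 5.27, 2.95 and 2.22 CPM in the vehicle libraries and 0.622, 1.15, 0.664, 0 and 1.17 CPM in the knockout-labelled ones. Those knockout-labelled values are 0 to 11 counts per library, and the count of 0 in library 4 allows up to 0.323 CPM (3 counts, counting error only). The groups did not overlap, and the log2 fold change was -2.33 (SE 0.48, edgeR adjusted p = 0.00525). After exercise Ciart had 14.7, 8.42, 8.61, 7.12 and 9.65 CPM in the vehicle libraries and 3.47, 1.08, 2.95, 0.540 and 2.83 CPM in the knockout-labelled ones (log2 fold change -2.13, SE 0.38, edgeR adjusted p = 0.0013). Knockout-labelled libraries 2 and 4, the lowest of that group, are libraries with a slow-fibre score under 3.

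After exercise 5 of the 6 members were again called, 1 higher and 4 lower, against 6.42% of all genes (2.67% higher and 3.75% lower). The groups stood apart in 5 of 6, all but Per3, against 6.29% of all genes. Over both states together all 6 were called, against 11% of all genes, 5.18% higher and 5.78% lower. Per1 was among them (log2 fold change -0.80, SE 0.21, edgeR adjusted p = 0.0171). Without the 5 libraries of low slow-fibre score Per1 had a log2 fold change of -0.65 with an adjusted p of 0.211 and was no longer called, while the other 5 were.

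**Figure D3:**
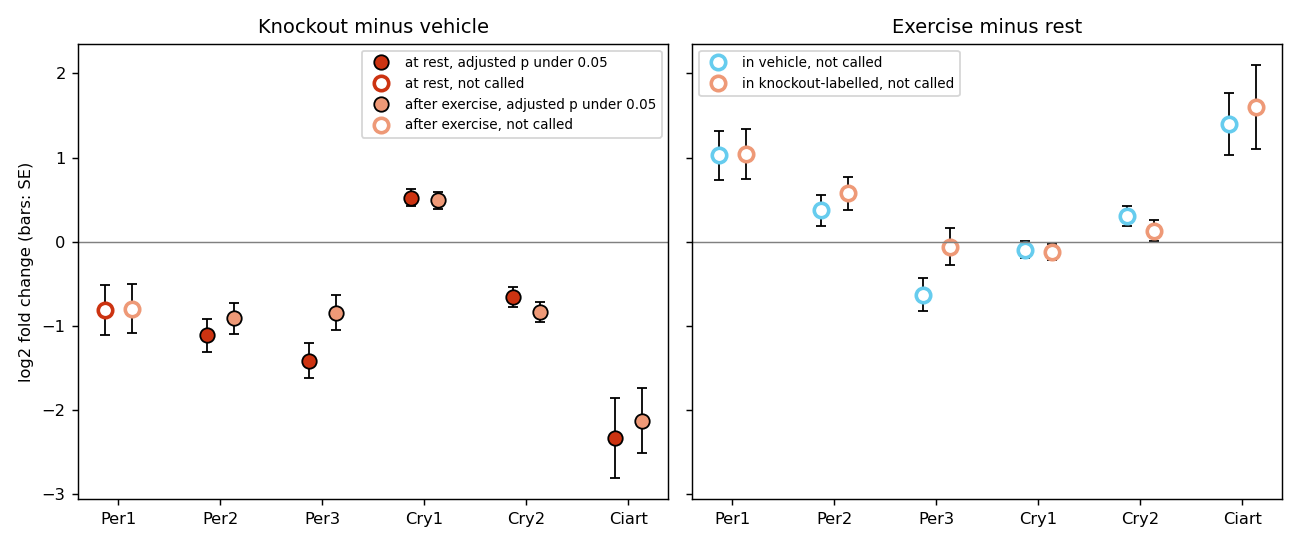
Log2 fold change and SE of each gene from the edgeR fit, on the left for knockout-labelled minus vehicle muscle and on the right for exercise minus rest; filled symbols are called at an adjusted p under 0.05. On the left Cry1 stands above 0 and the other 5 below it, and on the right Per1 and Ciart have the highest values in both genotypes, none of them called.

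Exercise was compared with rest inside each genotype. In vehicle muscle none of the 6 passed the edgeR test, against 0.804% of all genes, and 4 had an unadjusted p under 0.05, against 8.92% of all genes. Per1 went from 56.1 ± 8.96 CPM at rest to 114 ± 20.9 CPM after exercise (SD, n = 5), and the lowest exercised library, at 95.9 CPM, was above the highest resting one, at 65.5 CPM (log2 fold change 1.03, SE 0.29, edgeR adjusted p = 0.160). Ciart went from 3.68 ± 1.18 to 9.69 ± 2.92 CPM, also without overlap (log2 fold change 1.40, SE 0.36, edgeR adjusted p = 0.0901). Non-overlap was seen in 2.04% of all genes. The fits divided on these 2 genes. DESeq2 called both, with adjusted p = 0.0138 for Per1 and 0.0113 for Ciart, and limma-voom called 0. EdgeR called neither with all 20 libraries but both when fitted on the vehicle libraries alone, with adjusted p = 0.00539 and 0.0203. The SE for Per1 was 0.29 in the first of these edgeR fits and 0.14 in the second.

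In the other 4 members the resting and exercised vehicle libraries overlapped. Per3 had a log2 fold change of -0.63 (SE 0.20, edgeR adjusted p = 0.214), Per2 of 0.37 (SE 0.18, edgeR adjusted p = 0.579) and Cry2 of 0.31 (SE 0.12, edgeR adjusted p = 0.369). Cry1 had -0.09 (SE 0.10, edgeR adjusted p = 0.897).

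In knockout-labelled muscle edgeR called 0 of the 6 for exercise and 0% of all genes, and DESeq2 and limma-voom also called 0 of the 6. Unadjusted, 3 of the 6 had p under 0.05, as did 4.71% of all genes. Per1 went from 32.0 ± 19.2 to 65.8 ± 12.7 CPM (log2 fold change 1.04, SE 0.30, edgeR adjusted p = 0.864) and had the 43rd smallest p of 13560 genes. Ciart went from 0.721 ± 0.479 to 2.17 ± 1.28 CPM (log2 fold change 1.60, SE 0.50) and Per2 from 13.1 ± 2.35 to 19.5 ± 6.71 CPM (log2 fold change 0.57, SE 0.20). Both had an edgeR adjusted p of 0.9995, and the resting and exercised ranges overlapped in all 6 genes; 0.848% of all genes had ranges that did not.

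The difference between the 2 exercise responses was tested itself. EdgeR, DESeq2 and limma-voom called 0 of the 6, with 0 at an unadjusted p under 0.05, against 0% of all genes called by edgeR and 5.83% with an unadjusted p under 0.05. The difference was 0.01 (SE 0.41) for Per1, 0.20 (SE 0.59) for Ciart and 0.20 (SE 0.27) for Per2 on the log2 scale. Per3 had the largest, 0.57 (SE 0.29, edgeR adjusted p = 0.871): its level was 28.4 ± 7.92 CPM at rest and 18.4 ± 5.05 CPM after exercise in vehicle muscle, and 10.6 ± 1.28 and 10.2 ± 2.33 CPM in knockout-labelled muscle. These SEs are as wide as or wider than the differences for all of these genes but Per3.

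Over both genotypes together Per1 and Ciart were called higher after exercise, against 0.634% of all genes called and 0.494% called higher. Per1 had a log2 fold change of 1.03 (SE 0.21, edgeR adjusted p = 0.0326) and Ciart of 1.499 (SE 0.31, edgeR adjusted p = 0.0266). Per2 had 0.47 (SE 0.13, edgeR adjusted p = 0.145). These calls were close to the threshold: leaving out 1 library lost Per1 in 11 of 20 fits and Ciart in 7 of 20, with adjusted p up to 0.0703. Without the 5 libraries of low slow-fibre score Ciart had an adjusted p of 0.00205, Per2 became called at 0.00599 with a log2 fold change of 0.64, and Per1 was no longer called at 0.168 with one of 0.98.

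Levels of different genes were compared per kilobase of exon, with all exons annotated for a gene in GENCODE M21. The annotation used for the counting is not given, and the order of genes depends on these lengths. In vehicle muscle at rest Per1 stood at 9.97 ± 1.59 CPM per kb and Cry2 at 8.37 ± 0.842, and these neighbours changed order between libraries, with Per1 the higher in 3 of 5. Per2 at 4.85 ± 0.861 and Cry1 at 4.62 ± 0.304 CPM per kb were not separated either. Per3 at 2.96 ± 0.825 and Ciart at 1.63 ± 0.522 followed, with Per3 above Ciart in 5 of 5 libraries. In vehicle muscle after exercise Per1 led in all 5 libraries at 20.3 ± 3.71 CPM per kb, ahead of Cry2 at 10.4 ± 2.02, Per2 at 6.28 ± 0.737, Cry1 at 4.33 ± 0.471, Ciart at 4.29 ± 1.29 and Per3 at 1.91 ± 0.526. Ciart was above Per3 in 5 of 5 of those libraries.

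The order differed under the knockout label. At rest Cry1 was at 6.63 ± 0.521 CPM per kb, Per1 at 5.68 ± 3.41 and Cry2 at 5.31 ± 0.640, values that their spread does not separate for Per1. Per2 followed at 2.24 ± 0.401, Per3 at 1.11 ± 0.134 and Ciart at 0.319 ± 0.212 CPM per kb. After exercise Per1 was at 11.7 ± 2.25, Cry1 at 6.09 ± 0.697, Cry2 at 5.82 ± 0.702, Per2 at 3.33 ± 1.15, Per3 at 1.07 ± 0.242 and Ciart at 0.962 ± 0.568 CPM per kb. Per3 and Ciart were not separated there, with Per3 the higher in 2 of 5 libraries, while at rest Per3 was the higher in 5 of 5. Cry2 exceeded Cry1 per kb in 5 of 5 vehicle libraries in each state, but in 1 of 5 knockout-labelled libraries at rest and 2 of 5 after exercise. This order rests on the exon lengths used, 3.34 kb for Cry1 and 6.32 kb for Cry2. In counts Cry1 was below Cry2 in every knockout-labelled library, at ratios from 0.414 to 0.796. Per2 exceeded Cry1 in 0 of 5 knockout-labelled libraries in either state.

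The members also varied among libraries of the same group, and unequally. The biological coefficient of variation that edgeR fitted, 1 value per gene for all groups, was 0.379 for Ciart and 0.32 for Per1, and 0.0997 for Cry1, against a median of 0.163 over all genes. The spread of Per1 was uneven: its SD was 60.1% of the mean in knockout-labelled muscle at rest. It was 16.0% in vehicle muscle at rest, 18.3% in vehicle muscle after exercise and 19.3% in knockout-labelled muscle after exercise. Deviations of each library from its group mean were compared with the mean log2 CPM of 3 gene lists, which gave 18 relations over 20 libraries, with p from 100000 permutations of libraries within groups and adjusted over the 18. Per1 deviated with 7 glucocorticoid-induced genes (Fkbp5, Tsc22d3, Zbtb16, Sgk1, Klf9, Ddit4 and Errfi1): Pearson's r was 0.79 (permutation p = 0.00019, adjusted 0.00342), Spearman's rho was 0.80 (permutation p = 0.0005, adjusted 0.0090), and r was 0.65 without the 2 farthest libraries. In knockout-labelled muscle at rest the mean log2 CPM of that list was 6.11, 5.51, 5.91, 6.80 and 6.34 in libraries 1 to 5. Libraries 4 and 5, the highest of these, are the 2 with Per1 near the vehicle level.

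Per2 deviated with 9 CREB-induced genes, among them Sik1, Nr4a1 and Fos, while its r with the glucocorticoid list was 0.095 (permutation p = 0.618, adjusted 0.741). Its r with the CREB list was 0.60 (permutation p = 0.00263, adjusted 0.0158), rho was 0.66 (permutation p = 0.00457, adjusted 0.0322), and r was 0.54 without the 2 farthest libraries. Ciart deviated with the slow-fibre markers, with r of 0.70 (permutation p = 0.00039, adjusted 0.00351), rho of 0.63 (permutation p = 0.00537, adjusted 0.0322) and r of 0.71 without the 2 farthest. Within the 15 libraries of slow-fibre score 3 or more, r was 0.82 for Per1 with the glucocorticoid list, 0.64 for Per2 with the CREB list and 0.66 for Ciart with the slow-fibre markers. The Ciart value includes knockout-labelled library 4 at rest, which had 0 Ciart counts. That library deviated by -1.86 in Ciart and by -2.79 in slow-fibre score, and it was not among the 2 farthest. The Ciart relation without it was not tested. The other 15 relations had adjusted p-values above 0.05. Among them, Ciart with the glucocorticoid list had r of -0.51 (permutation p = 0.0436, adjusted 0.196). Within the 15 libraries of slow-fibre score 3 or more, that r was -0.71, again with knockout-labelled library 4 at rest included. Without the 5 libraries of low slow-fibre score, and with that score as a covariate, 5 of the 6 members were called between the labels at rest and 5 after exercise. The part of the glucocorticoid-list level in the differences between groups was not tested.

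**Figure D4:**
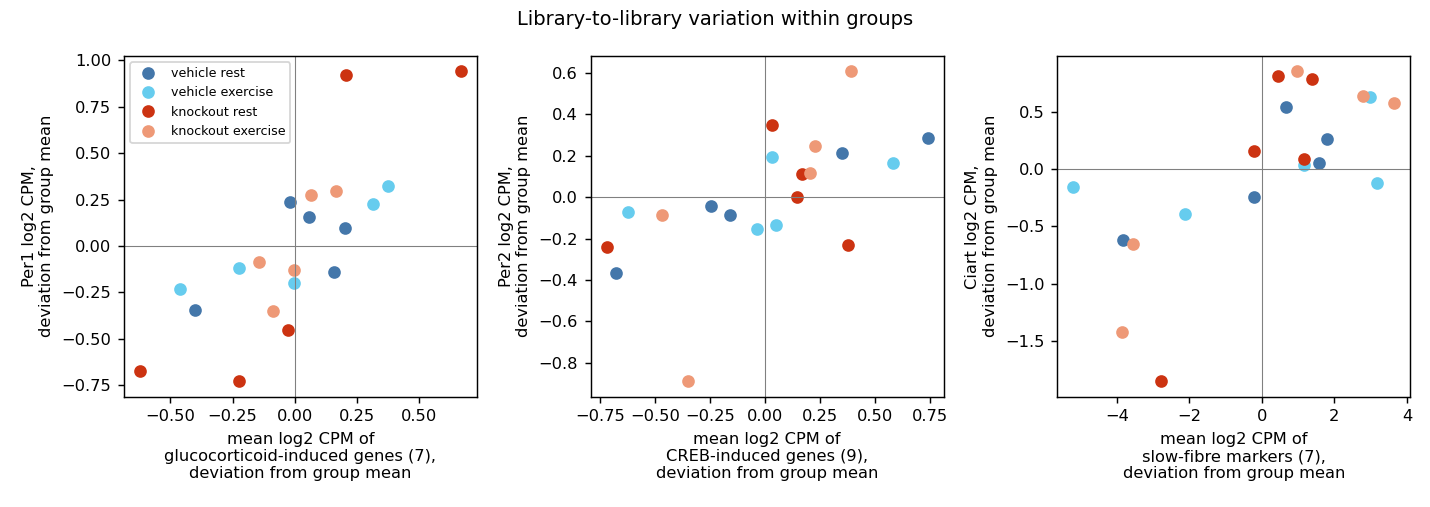
Deviation of each library from its group mean on the log2 CPM scale, for Per1 against 7 glucocorticoid-induced genes, Per2 against 9 CREB-induced genes and Ciart against 7 slow-fibre markers, with 1 dot per library and 20 libraries in each panel. Pearson's r is 0.79, 0.60 and 0.70 from left to right, and Per1 in 2 resting knockout-labelled libraries lies over 0.9 above its group mean.

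The genes whose profile over the 20 libraries was most like each member were ranked by the root mean square difference of log2 CPM after centring, among 11722 candidates. For Per1 they were Slc25a25 (0.456), Tsc22d3 (0.471) and Cebpb (0.484). For Per2 they were Hk2 (0.293), which encodes hexokinase 2, Rnf144b (0.312) and Met (0.321). For Per3 they were Rhobtb1 (0.344), Tef (0.386), a clock-controlled D-box factor, and Vps13a (0.390). For Cry1 they were Ginm1 (0.134), Rnf10 (0.142) and Prpf19 (0.153), and for Cry2 they were Pfkm (0.172), which encodes muscle phosphofructokinase, Tpbgl (0.187) and Herpud1 (0.190). For Ciart they were Coq10b (0.799), Ip6k3 (0.851) and Sorbs3 (0.864). The difference was not scaled to each gene's own spread, so its size cannot be compared between members. The SD of log2 CPM over the 20 libraries was 1.53 for Ciart, 0.861 for Per1 and 0.685 for Per3. It was 0.659 for Per2, 0.437 for Cry2 and 0.292 for Cry1.

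Around the repressors, 32 other clock genes were listed and 30 were tested. At rest 3 were called higher under the knockout label and 8 lower, against 1.8% higher and 2.06% lower over all genes, with a median log2 fold change of -0.04 against 0.01 over all genes. Among the activators, Clock went from 14.6 ± 1.73 to 37.2 ± 6.92 CPM (log2 fold change 1.34, SE 0.13, edgeR adjusted p = 3.98e-07), and Npas2 was called higher, from 0 to 3 counts per vehicle library to 25 to 34 counts per knockout-labelled library. The D-box activators were lower: Dbp fell by 2.66 on the log2 scale, Hlf fell by 1.79 and Tef fell by 1.16, while Nfil3, which represses through the same sites, had 1.37. Nr1d2, which encodes REV-ERB beta, had -1.46, and the E-box repressors Bhlhe40 and Bhlhe41 had -1.25 and -0.53. Of 10 tested genes that set PER and CRY stability, the kinase gene Csnk1e had -0.55 and the deubiquitinase gene Usp2 had -0.67, and the other 8 were not called. Of 7 partners of the repressor complex edgeR called 0 at rest, as did DESeq2 and limma-voom, and 1 had an unadjusted edgeR p under 0.05. Such p-values were common in this contrast: Rora, at an unadjusted edgeR p of 0.0514, ranked only 2002nd of 13560 genes. The 1 of 7 is therefore not read as an excess over all genes.

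After exercise 2 of the 30 were called higher, Clock and Npas2, and 7 lower, against 2.67% higher and 3.75% lower over all genes, with a median of -0.04 against 0.01. The 7 were Dbp (-2.39), Nr1d2 (-1.60), Usp2 (-1.16), Tef (-1.02), Hlf (-0.93), Rora (-0.59), which encodes an activator of Arntl, and Csnk1e (-0.34). For exercise in vehicle muscle 2 were called, Nfil3 (1.72) and Usp2 (0.79), both higher, against 0.804% of all genes. For exercise in knockout-labelled muscle edgeR, DESeq2 and limma-voom called 0, with 2 of the 30 at an unadjusted p under 0.05, against 4.71% of all genes. The median over the 30 was 0.01 for exercise in vehicle muscle and 0.04 in knockout-labelled muscle, against 0.00 over all genes in both.

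**Figure D5:**
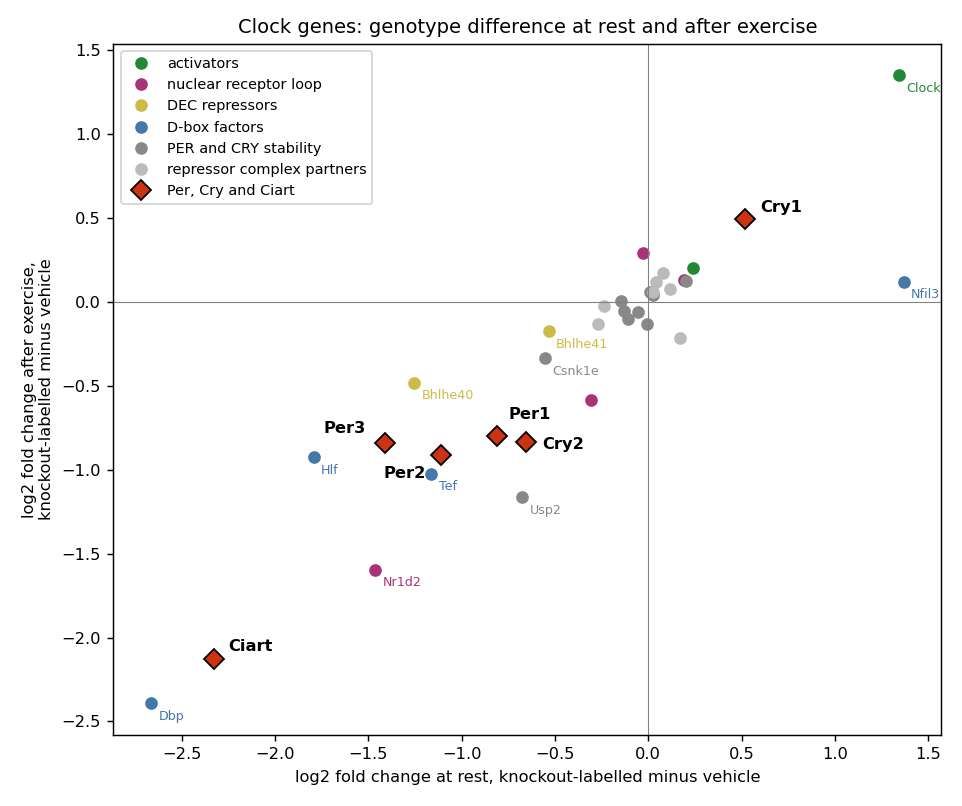
Log2 fold change of knockout-labelled minus vehicle muscle at rest (horizontal) and after exercise (vertical), with 1 symbol per clock gene tested and diamonds for the 6 repressors; Npas2 is left out because vehicle libraries at rest had 0 to 3 counts. Ciart lies beside Dbp at the lower left, and Cry1 lies at the upper right on the side of Clock.

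Genes induced by CREB and by glucocorticoids, the routes that reach Per1 and Per2 outside the loop, were counted as 2 lists. Of 9 CREB-induced genes, 5 were called higher after exercise in vehicle muscle: Nr4a2 (log2 fold change 4.97), Fosb (2.78), Sik1 (2.77), Nr4a1 (1.37) and Crem (1.1), against 0.804% of all genes called, with a list median of 1.5 against 0.00 over all genes. Nr4a2 had only 0 to 12 counts and Fosb 2 to 4 counts per vehicle library at rest, so the size of these 2 changes is uncertain. In knockout-labelled muscle edgeR, DESeq2 and limma-voom called 0 of the 9, with 4 at an unadjusted p under 0.05, against 4.71% of all genes, and a median of 0.59. After exercise 4 were lower under the knockout label, against 3.75% of all genes: Fosb (-2.39), Nr4a2 (-2.12), Sik1 (-1.46) and Nr4a1 (-0.94). Fosb had 0 to 6 counts per exercised knockout-labelled library. For the difference between the 2 exercise responses edgeR and limma-voom called 0 of the 9 and DESeq2 called 1, and 6 had an unadjusted p under 0.05, against 5.83% of all genes. Of 7 glucocorticoid-induced genes edgeR and limma-voom called 0 for exercise in either genotype, and DESeq2 called 1 in vehicle muscle and 0 under the knockout label. At an unadjusted p under 0.05 there were 5 in vehicle and 2 in knockout-labelled muscle, against 8.92% and 4.71% of all genes, with medians of 0.47 and 0.38.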

How the data were processed

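RNA-seq counts per gene were deposited as whole-number counts for 20 libraries, 5 per group. Per the submitters' processing notes, the authors used Partek, STAR 2.7.8a and DESeq2 with the builds mm10 and GRCm39; the role of each build, the annotation and strandedness are not given in the sources used here. The authors' counts were used as deposited.

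EdgeR 4.0.16 in R 4.3.3 was run on all 20 libraries with filterByExpr, TMM scaling, 1 mean per group and robust quasi-likelihood tests for 7 contrasts, with Benjamini-Hochberg adjustment over 13560 genes and a threshold of 0.05. Levels are TMM-scaled CPM computed from the counts, and log2 values used a prior count of 2. DESeq2 1.42.0 and limma-voom (limma 3.58.1) were alternatives, and the fits were tested on simulated data. The closest libraries within a group differed by a chi-square per degree of freedom of 3.98 to 11.8, so none was a repeat. The labels state no pairing of libraries by replicate number, and the main fit used none. Exon lengths and overlaps came from GENCODE M21 (GRCm38), and promoters from RefSeq (GRCm38.p6).

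Each gene was named by a rule: the 6 members always, the 3 genes with the most similar profile, and listed pathway genes that were called, with Arntl. Members and lists were chosen with earlier results of these data known. The relations with list scores and the fit without libraries of slow-fibre score under 3 were added after seeing the data.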

Additional observations from a re-analysis of the deposited data

Results flagged for a closer look

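Each of 24 sets, 1 for each gene and group, was searched for a library standing apart from the other 4. The count of Ciart in knockout-labelled muscle at rest was flagged in library 4, the lowest at 0 CPM (0 counts), because its gap to the nearest library was 0.728 of the group's range on the log2 scale, above 0.71. For 0 counts the log2 value, -2.20, is set by the prior count of 2, and the nearest library had 5 counts and -0.25. The flag thus depends on that setting. Chance flags about 1 in 20 sets. That library also had the lowest slow-fibre score of its group, 4.47, and the highest Per1, 53.4 CPM.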

How the results depend on the processing

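Under all alternatives the members called under the knockout label numbered 5 to 6 at rest, 4 (adjusted p under 0.01) to 6 (DESeq2) after exercise and 5 to 6 over both states. For exercise in vehicle muscle the count went from 0 to 2 with DESeq2, 2 with only the groups compared and 1 with the slow-fibre score as covariate. For exercise over both genotypes it went from 2 to 1 with limma-voom, 0 with no filter on low counts and 0 at an adjusted p under 0.01, and to 3 with DESeq2 and with the slow-fibre score as covariate, and ranged from 0 to 3 when leaving out 1 library. Per1 was then not called without vehicle at rest 1, 2, 4 or 5, vehicle after exercise 2, 3 or 4, knockout-labelled at rest 3, or knockout-labelled after exercise 1, 3 or 5 (adjusted p 0.0507 to 0.0703). Ciart was not called without vehicle at rest 2, 4 or 5, knockout-labelled at rest 3, or knockout-labelled after exercise 1, 3 or 5 (0.0538 to 0.0703), and Per2 was called without knockout-labelled after exercise 4 (0.00915). The cause was not tested. Values near 0 changed sign. Per3 for exercise in knockout-labelled muscle was 0.083 with the covariate, 0.0023 without the 5 libraries of low slow-fibre score and -0.18 to 0.041 when leaving out 1 library. The difference in response was -0.15 to 0.28 for Per1, -0.082 to 0.028 for Cry1 and -0.12 to 0.46 for Ciart when leaving out 1 library, 0.0012 for Cry1 with library size only, and 0.025 for Cry1 and 0.011 for Cry2 without the 5 libraries. With the replicate number as a block the members called were 5, 5, 0, 0, 0, 6 and 2 over the 7 contrasts, and no member's call changed. Same-numbered libraries deviated together (correlation over 0.1) in 15 of 30 pairs, and 4 of 20 libraries correlated best with their own number. Counts over all genes ranged from 367 to 844 at rest (523), 304 to 1415 after exercise (870), 52 to 248 for exercise in vehicle muscle (109), 35 to 255 over both genotypes (86), 1007 to 2189 over both states (1486), 0 to 6 for exercise in knockout-labelled muscle (0) and 0 to 3 for the difference in response (0). With library size only, 53.1% of the calls after exercise were higher, against 41.6%. Leaving out mitochondrial genes raised 9 of the 24 member levels by more than 1 SD. Depth limits Ciart most, at 0 to 143 counts per library.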
